A study of Mus musculus with 2 samples.

Results

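A set of 39 genes that mark macrophages, neutrophils and leukocytes in general was followed in whole mouse lung with and without TAZ. They were taken from a written list of gene symbols, and every probe set (a group of array probes for a transcript) that the platform annotation assigns to exactly 1 of them was kept. All 39 genes were found, with 69 probe sets, among 18193 genes with 34945 such probe sets on the array. Of the 39, 36 were measured, meaning that the signal of the brightest probe set was above a floor of 15.2 units, the median of all values, on at least 1 array. The 3 genes that did not pass were Cd163, Itgam and Mpo.

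The data were 2 arrays of lung from mouse embryos at embryonic day E15.5, 1 of wild type and 1 of TAZ-deficient littermates. The gene Wwtr1 encodes TAZ, a coactivator of transcription that the Hippo kinases restrain. Each array was hybridised with a single pool of 4 total RNA samples, so each group was 1 sample and no difference below has a replicate check, a p-value or an SD. The sources used here do not say how the deficiency was made or of which sex the embryos were. Precision is limited throughout by having 2 arrays.

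Macrophages enter the fetal lung from yolk sac and fetal liver precursors and live in the mesenchyme, where they take up dying cells and debris. Their survival depends on the receptor CSF1R, their identity on the transcription factor PU.1, and many of them secrete complement C1q, the recognition molecule of the classical complement pathway. Neutrophils are known instead for the calcium-binding proteins S100A8 and S100A9 and for granule enzymes. In whole tissue, fewer cells of a type and less RNA per cell cannot be told apart.

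The labels were checked first. The brightest probe set of Wwtr1 read 791.2 signal units in the wild type pool and 11.3 in the TAZ-deficient pool. Lung markers were present on both arrays, surfactant protein C (Sftpc) reading 4142.5 and 4121.5 and the epithelial adhesion molecule Epcam 1287.4 and 1335.8. Signals ran from 0 to 5348.1 and from 0 to 5541.4, with medians of 15.2 and 15.1.

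Across the 36 measured leukocyte genes the differences were small, and most of them pointed down. Ratios are TAZ-deficient over wild type on the log2 scale, after values below 15.2 were set to 15.2. Of the 36, 26 had a ratio below 0 (72.2%), against 53% of the 12040 measured genes of the array. Their median log2 ratio was -0.14 (1.10-fold lower), against -0.01 over all measured genes, and ran from -0.72 (Spi1) to 0.63 (S100a8). The directions of 4 genes close to 0 turned with the scaling, Csf1r and F13a1 having a positive ratio under median centring, quantile normalization and loess, and Mrc1 and Laptm5 under the latter pair. The summed signal of the 36 genes was 5331.7 in the wild type pool and 5206.6 in the TAZ-deficient pool, 1.02-fold lower. That of all measured genes was 1.01-fold higher. The sum of the 36 is weighted to its brightest genes, Ctsc (1007.3 and 1048.2) and Maf (539.4 and 693.3), both of which were higher. By signal, the share below 0 was 61.5% of 13 members between 15.2 and 50 units (55.7% of all genes there), 80% of 15 between 50 and 200 (56.5%) and 75% of 8 above 200 (47.9%). Within 1.1-fold of wild type were 12 of the 36 genes, against 7028 of the 12040 measured genes.

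**Figure D1:**
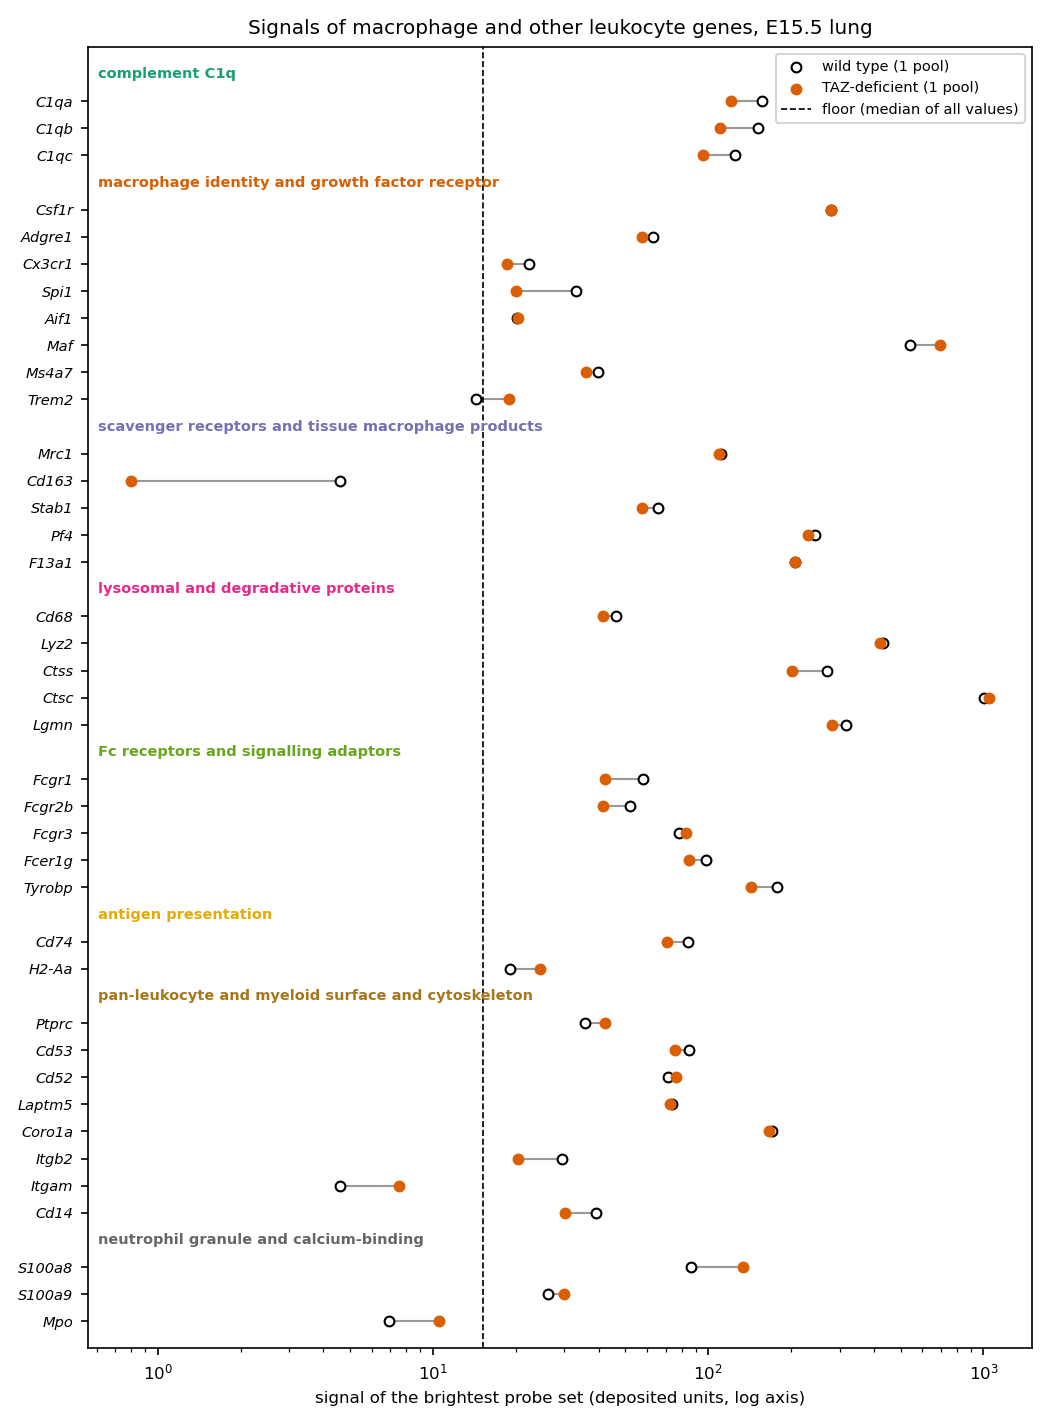
Signal of the brightest probe set of each of the 39 genes (horizontal log axis, deposited units) in the wild type pool (open circles) and the TAZ-deficient pool (filled circles), with the floor of 15.2 as a dashed line. Cd163, Itgam and Mpo lie left of the floor on both arrays, and the C1q genes, Spi1, Ctss, Fcgr1 and Tyrobp have their filled circle to the left of the open one.

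At 1.5-fold only 2 genes stood out. Spi1 was the only member lower by that much, and S100a8 the only member higher, which is 2.78% of the 36 in each direction. Over all measured genes 1.48% were at least 1.5-fold lower and 1.27% at least 1.5-fold higher, so the share among the leukocyte genes was close to that of the array. None was 2-fold different, a size reached by 0.0748% of all measured genes downwards and 0.116% upwards.

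At 1.2-fold, 10 members were lower and 4 were higher. The 10 lower genes were C1qa, C1qb, C1qc, Spi1, Ctss, Fcgr1, Fcgr2b, Tyrobp, Itgb2 and Cd14, or 27.8% of the 36, against 10.6% of all measured genes. The 4 higher ones were Maf, Trem2, H2-Aa and S100a8, or 11.1%, against 8.02%. Cx3cr1, at 1.199-fold lower, lay just outside the limit.

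Dim genes differed more between the 2 arrays, so the counts were also set beside genes of like signal. Between 15.2 and 50 units, 5 of 13 members (38.5%) were at least 1.2-fold lower, against 23.5% of 2872 genes, and 2 of the 13 higher (15.4%), against 18.2%. Between 50 and 200 units, 4 of 15 members (26.7%) were lower, against 10.4% of 4521 genes, the 4 being the C1q genes and Tyrobp. S100a8 was the only higher member there (6.67%), against 6.92%. Above 200 units, Ctss alone of 8 members was lower (12.5%), against 2.75% of 4647 genes, and Maf alone was higher, against 2.82%. Members were thus lower in a larger share than the array in each of the 3 signal ranges, on 5, 4 and 1 genes, and the share of higher members exceeded that of the array only among the 8 brightest.

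**Figure D2:**
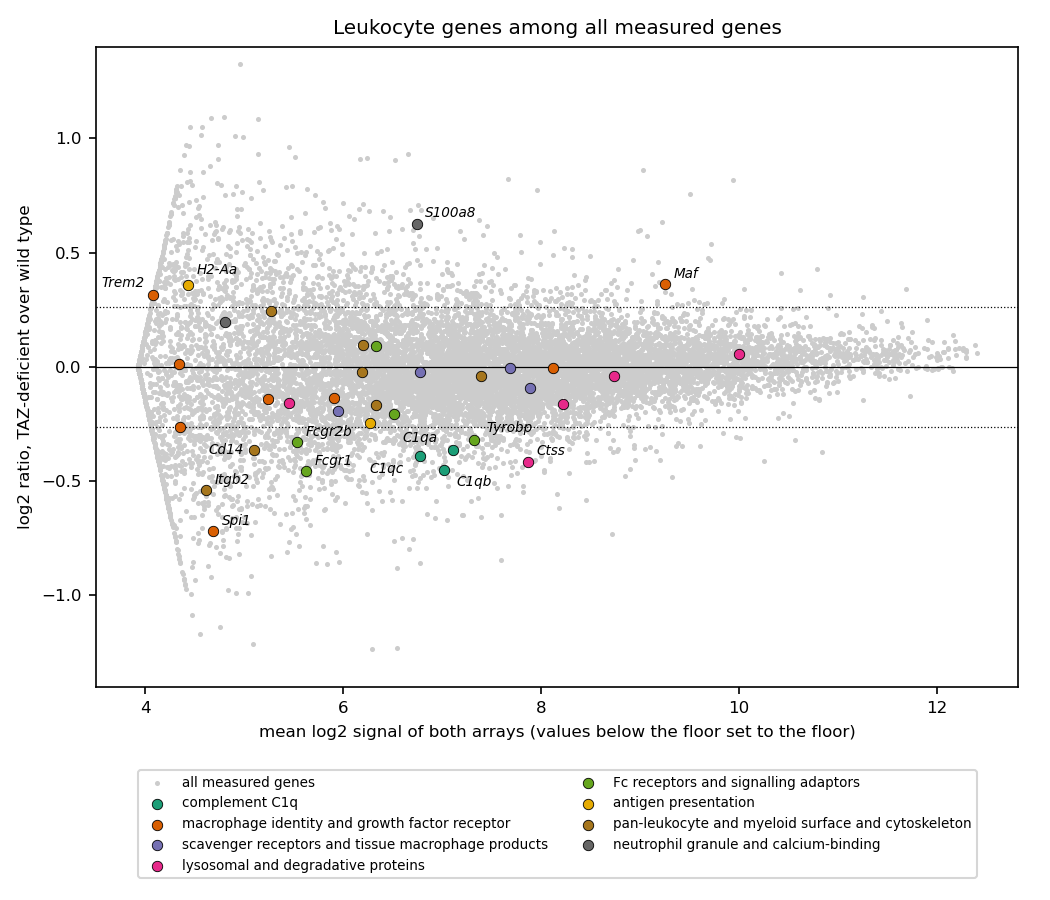
Log2 of TAZ-deficient over wild type signal (vertical axis) against the mean log2 signal of both arrays (horizontal axis) for all measured genes (grey) and the 36 measured leukocyte genes (coloured by role), with dotted lines at 1.2-fold. Named points are the 14 members at least 1.2-fold different, and 8 other measured genes lie outside the plotted range of -1.4 to 1.4.

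The C1q genes were lower together. C1qa, C1qb and C1qc encode the A, B and C chains that assemble into C1q, and they lie next to each other on chromosome 4. C1qa read 156.4 in the wild type pool and 121.4 in the TAZ-deficient pool, 1.29-fold lower. C1qb read 151.3 and 110.7, 1.37-fold lower. C1qc read 125.3 and 95.5, 1.31-fold lower. All 3 genes were lower, by log2 ratios within -0.37 to -0.45, and the 2 further probe sets of C1qb, both of the cross-hybridising suffix _x_at, were lower as well (100.5 and 83.8, and 103.1 and 80.4). The 3 genes had negative ratios under each of the 8 alternatives, with medians between -0.34 and -0.39. Their size can be set beside the disagreement between probe sets of a gene, the only error that 2 arrays allow. For 5637 genes a second probe set passed the floor, and the spread between the ratios of the brightest pair, given as the SD of their difference over the square root of 2, was 0.20 on the log2 scale. The 3 ratios were larger in size than that value, which holds no variation between embryos, pools or arrays.

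The 250 bases upstream of the annotated start are shown for C1qb and C1qc, for Ctss and Fcgr1, which were also lower, and for S100a8, which was the highest. The sequences are RefSeq's on GRCm38.p6, and are written 5′ to 3′ on the gene's strand. Capitals mark GAGGAA, the purine-rich core bound by PU.1, and TGCTGA, a half-site of the MAF recognition element, on either strand (TTCCTC and TCAGCA on the other). The windows are chr4:136886201-136886450 for C1qb (minus strand), chr4:136892915-136893164 for C1qc (minus), chr3:95526536-95526785 for Ctss (plus), chr3:96293970-96294219 for Fcgr1 (minus) and chr3:90668821-90669070 for S100a8 (plus).
C1qb: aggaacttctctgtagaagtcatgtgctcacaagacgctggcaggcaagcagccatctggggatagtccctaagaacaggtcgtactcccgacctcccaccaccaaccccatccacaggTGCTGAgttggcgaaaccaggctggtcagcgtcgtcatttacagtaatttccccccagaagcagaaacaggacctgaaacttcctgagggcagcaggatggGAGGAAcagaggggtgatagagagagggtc
C1qc: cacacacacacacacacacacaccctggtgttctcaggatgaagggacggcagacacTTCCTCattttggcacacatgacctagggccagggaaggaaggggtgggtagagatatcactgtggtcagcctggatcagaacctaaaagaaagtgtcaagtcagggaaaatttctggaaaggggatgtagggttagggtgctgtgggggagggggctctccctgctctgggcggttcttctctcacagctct
Ctss: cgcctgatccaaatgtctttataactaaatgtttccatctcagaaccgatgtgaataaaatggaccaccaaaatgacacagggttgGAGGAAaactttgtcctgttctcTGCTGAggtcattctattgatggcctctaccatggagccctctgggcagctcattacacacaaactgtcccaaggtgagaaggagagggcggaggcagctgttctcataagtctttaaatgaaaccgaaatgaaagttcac
Fcgr1: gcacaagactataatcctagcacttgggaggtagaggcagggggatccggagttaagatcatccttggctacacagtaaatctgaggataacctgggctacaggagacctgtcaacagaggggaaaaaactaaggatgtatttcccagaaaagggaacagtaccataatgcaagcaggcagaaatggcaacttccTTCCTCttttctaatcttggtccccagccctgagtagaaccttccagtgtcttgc
S100a8: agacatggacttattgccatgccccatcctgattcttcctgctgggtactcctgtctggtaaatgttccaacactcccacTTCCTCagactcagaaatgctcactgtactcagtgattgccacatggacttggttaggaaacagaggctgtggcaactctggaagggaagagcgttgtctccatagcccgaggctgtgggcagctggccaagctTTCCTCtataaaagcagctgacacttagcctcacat

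Each of the 5 windows held GAGGAA, S100a8 at 2 positions, and those of C1qb and Ctss also held TGCTGA. The windows were chosen after the motifs had been searched, as those of lower members that held one, and S100a8. Promoter entries were found for 29 of the 39 genes, with 35 windows. Of the 10 members at least 1.2-fold lower, 5 had an entry, and the one not shown, Fcgr2b, held neither motif. Of the 3 higher members with an entry, S100a8 and Trem2 held GAGGAA and H2-Aa did not. Of the 18 members within 1.2-fold that had an entry, 11 held GAGGAA. It was in 20 of the 35 windows (57.1%), against 23.3% of all 32851 windows of that length. The longer forms GAGGAAG and GAGGAAGT, which contain it, were in 13 (37.1%) and 5 (14.3%), against 10.6% and 2.44%. TGCTGA was in 8 (22.9%, against 16.1%) and the E-box CACGTG in 1 (2.86%, against 6.02%), that of Lgmn. The motif was found in genes that were lower (Fcgr1), close to wild type (Mrc1) and higher (S100a8) alike. These matches describe the letters in the windows and are neither binding sites nor a cause, and some windows overlap because a gene has several starts.

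Among genes of macrophage identity, only Spi1 differed by 1.5-fold. Spi1, which encodes PU.1, the transcription factor needed for myeloid cells, read 33.1 in the wild type pool and 20.1 in the TAZ-deficient pool, 1.65-fold lower. It has a single probe set, and it is dim: 4.91% of genes between 15.2 and 50 units were at least 1.5-fold lower. With 16 units added in place of the floor its log2 ratio was -0.44 instead of -0.72, which is below 1.5-fold.

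Csf1r, the receptor for the growth factors CSF1 and IL-34, showed no common direction. Its brightest probe set read 280.0 and 279.0, a second one 73.2 and 97.5, and the remaining one 85.2 and 61.2. The probe sets of this gene thus pointed flat, up and down. Adgre1, an adhesion-type surface receptor used as a classical macrophage marker, read 63.0 and 57.3 (1.10-fold lower). Cx3cr1, the fractalkine receptor of yolk sac-derived macrophages, read 22.3 and 18.6, with its other probe set at 16.1 and 10.2. Both of these receptors had a lower signal in TAZ-deficient lung by less than 1.2-fold.

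Maf, a transcription factor of tissue macrophages that other lung cells express too, was higher. Its brightest probe set read 539.4 and 693.3 (1.28-fold higher), while the 4 other probe sets above the floor were within 1.1-fold (197.8 and 210.2, 120.4 and 131.0, 121.8 and 122.6, 18.0 and 19.0). All 5 had a positive ratio, and the median over them was 0.09. Trem2, a lipid-sensing receptor that signals through TYROBP, read 14.3 and 18.9, at least 1.24-fold higher, close to the floor. Ms4a7, a tetraspanning membrane protein of tissue macrophages, read 39.8 and 36.1, and Aif1, the calcium-binding protein IBA1, read 20.2 and 20.4. Of the 8 genes of this group 5 had negative and 3 positive ratios, with a median of -0.07.

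Scavenger receptors and secreted products of tissue macrophages were close to wild type. Mrc1, the mannose receptor, read 110.9 and 109.1, and F13a1, the coagulation factor XIII A subunit, read 206.8 and 205.9. Pf4, a chemokine made by platelets and by fetal macrophages, read 245.0 and 229.8, and the scavenger receptor Stab1, shared with some endothelium, read 65.8 and 57.6. None of the 4 reached 1.2-fold, and their median log2 ratio was -0.06. Cd163, the haemoglobin scavenger receptor, read 4.6 and 0.8, both below the floor, so that it gave no ratio.

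Among lysosomal genes Ctss stood apart from the others. Ctss, cathepsin S, a protease of antigen-presenting cells, read 269.5 in the wild type pool and 202.2 in the TAZ-deficient pool (1.33-fold lower). Lgmn, the endopeptidase legumain, read 316.9 and 282.8 (1.12-fold lower), and Cd68, a lysosomal membrane protein of macrophages, read 46.2 and 41.4 (1.12-fold lower). Lyz2, lysozyme M, which type 2 epithelial cells come to express as well, read 432.6 and 420.9. Ctsc, cathepsin C, which activates granule proteases, read 1007.3 and 1048.2 at its brightest probe set, 35.1 and 27.9 at another and 13.9 and 15.6 at the last. The 5 genes thus ranged from -0.41 (Ctss) to 0.06 (Ctsc).

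Fc receptors and their signalling adaptors were lower in 4 of 5 genes, with a median log2 ratio of -0.32. Fcgr1, the high-affinity receptor for IgG, read 57.8 and 42.1 (1.37-fold lower), and its other probe set 18.1 and 14.7. Tyrobp, the adaptor DAP12 that links receptors such as TREM2 to the kinase SYK, read 178.4 and 142.9 (1.25-fold lower). Fcer1g, the common gamma chain of Fc receptors, read 98.5 and 85.4 (1.15-fold lower). Fcgr3, a low-affinity activating receptor, was the exception at 78.2 and 83.4 (1.07-fold higher).

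Fcgr2b, the inhibitory receptor for IgG, was lower by 1.26-fold at its brightest probe set (52.0 and 41.4), but its probe sets disagreed. One of the others was lower (46.4 and 34.5) and a pair was higher (38.5 and 44.6, 22.6 and 26.0), so that the median over probe sets was -0.06. Fcgr2b and Fcgr3 are similar in sequence, and their probe sets can share signal.

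**Figure D3:**
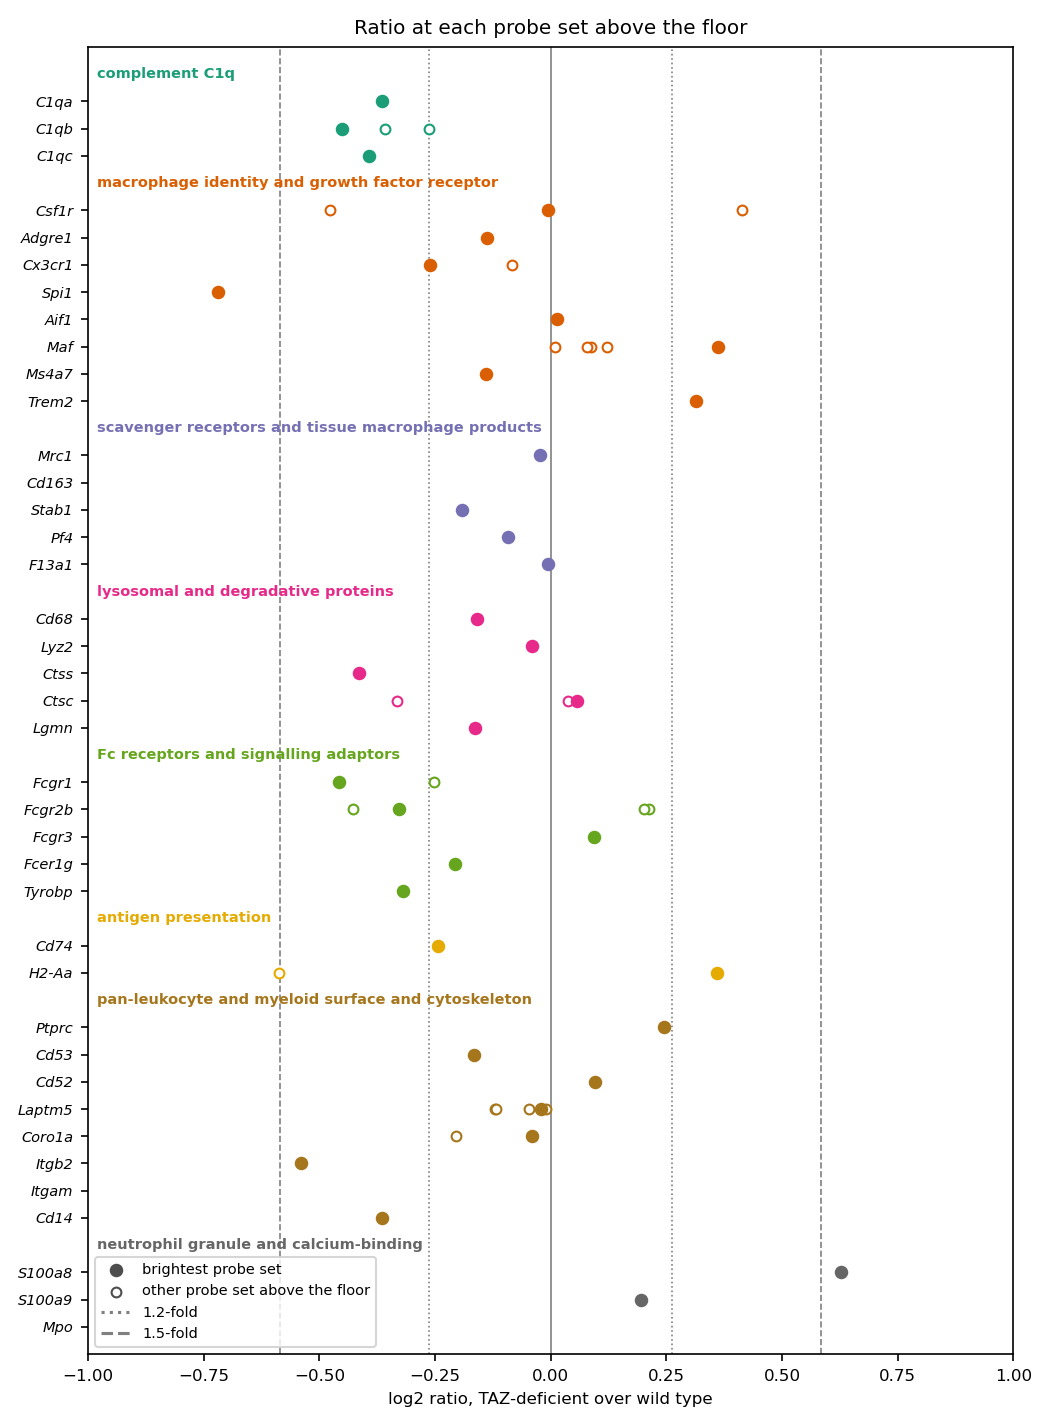
Log2 of TAZ-deficient over wild type signal (horizontal axis) at every probe set above the floor, with the brightest probe set of each gene filled and the others open, and lines at 1.2-fold (dotted) and 1.5-fold (dashed). The probe sets of C1qb and Laptm5 lie on the same side of 0, whereas those of Csf1r, Fcgr2b, Ctsc and H2-Aa lie on both sides.

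A second probe set passed the floor for 10 members, whose 2 brightest had ratios of the same sign in 6 of the 10 (60%), against 58.1% of the 5637 such genes of the array. The 4 that disagreed were Csf1r, Ctsc, Fcgr2b and H2-Aa. The SD between them, 0.31, was above the 0.20 of all genes. Of the 36 measured members, 26 had only 1 probe set above the floor, and for these no second reading bears on the ratio.

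Antigen presentation genes gave no common direction. Cd74, the invariant chain that guides MHC class II molecules, read 84.2 and 71.1 (1.18-fold lower). H2-Aa, an MHC class II alpha chain, read 19.1 and 24.5 at its brightest probe set (1.28-fold higher) and 24.8 and 16.5 at another, the remaining 2 being below the floor. Its ratio was 0.36 by the former and -0.59 by the latter, and all 4 probe sets have suffixes of shared or cross-hybridising sets.

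General leukocyte genes were mostly close to wild type. Ptprc, the phosphatase CD45 found on leukocytes, read 35.6 and 42.2 (1.18-fold higher). Coro1a, an actin-binding coronin, read 170.6 and 165.8, and Laptm5, a lysosomal membrane protein of blood cells, read 73.7 and 72.6, with negative ratios at all 5 of its probe sets on the deposited scale. The tetraspanin Cd53 read 85.2 and 75.9, and the surface glycoprotein Cd52 read 71.2 and 76.1. None of these 5 reached 1.2-fold, 3 being lower and 2 higher.

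The 2 genes of this group past 1.2-fold were dim. Itgb2, the beta 2 integrin chain CD18 that leukocytes use for adhesion, read 29.5 and 20.3 (1.45-fold lower). Cd14, the co-receptor for lipopolysaccharide, read 39.0 and 30.3 (1.29-fold lower). Itgam, the alpha M partner of Itgb2, was below the floor at 4.6 and 7.5.

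S100a8 and S100a9, which neutrophils make, read higher in the TAZ-deficient pool. S100a8, a subunit of the calcium-binding protein calprotectin, read 86.4 in the wild type pool and 133.4 in the TAZ-deficient pool, 1.54-fold higher, where 0.752% of genes between 50 and 200 units were at least 1.5-fold higher. S100a9, its partner, read 26.2 and 30.0 (1.14-fold higher). Mpo, the granule enzyme myeloperoxidase of early neutrophil precursors, was below the floor at 6.9 and 10.5. The S100a8 probe set has the suffix _s_at of a set shared between transcripts, and with the floor at 106.3 its log2 ratio was 0.33 instead of 0.63. Of 10 further neutrophil granule genes matched, only 3 were measured, none at 1.2-fold, with a median of -0.18, Ngp (33.3 and 28.2) and Mmp9 (18.6 and 16.4) being lower and Prtn3 (17.1 and 18.9) higher. The 3 granule genes thus showed no common direction. Mmp9 was named after its values were seen.

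Red cell genes, which mark blood in the tissue, differed in both directions on the same arrays. The embryonic globins Hbb-y (926.0 and 2825.8), Hba-x (113.8 and 409.2) and Hbb-bh1 (19.9 and 61.7) were higher, and Trim10 was lower (80.6 and 45.9). Lower too were Alas2 (662.4 and 609.2), Slc4a1 (195.2 and 148.2) and Epor (29.6 and 24.4), these being named after their values were seen. The summed signal of the 7 measured red cell genes was 2027.5 in the wild type pool and 4124.4 in the TAZ-deficient pool, with 3 ratios above 0 and 4 below, and no gene of the list at 0. The rise of the sum came from the embryonic globins alone, mostly Hbb-y. These 3 were the genes of the list at least 2-fold higher (42.9% of the 7), against 0.116% of all measured genes. Whether the pools differed in their amount of blood, and the part of blood in the leukocyte values, was not tested.

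The other genes of macrophage supply and control were also mostly within 1.5-fold. Of 13 growth factors and chemokines 8 were measured, with a median of -0.12, and -0.07 over all probe sets. By at least 1.2-fold 3 were lower (37.5%, against 10.6% of all measured genes) and 2 higher (25%, against 8.02%). All but Cxcl12 read below 50 units, where 23.5% of genes were that much lower and 18.2% higher. The brightest were the chemokine Cxcl12 (304.8 and 284.9) and Csf1, the main macrophage growth factor (48.0 and 43.3). Il34, the other ligand of CSF1R, read 16.2 and 9.1. Csf1 was 1.11-fold lower at the brightest of its 4 probe sets above the floor, and the others are not given here. The signal of Il34 in the TAZ-deficient pool was below the floor, so that its fold of at least 1.07 lower is a lower bound.

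Of 7 measured receptors for cytokines and chemokines, 2 were lower and 1 was higher by at least 1.2-fold, with a median of 0.05. These were 28.6% and 14.3%, against 10.6% and 8.02% of all measured genes. The brightest were Cxcr4 (285.9 and 286.3) and Ifngr1 (177.1 and 183.0). Ccr2, the receptor that brings monocytes into tissue, read 34.1 and 23.1 (1.48-fold lower). This is the brightest of its 4 probe sets above the floor, and the others are not given here. The chemokine receptor Ccr1, of like signal, read 36.5 and 46.4 (1.27-fold higher). Ccr1, Ccr2 and Il34 were named after their values were seen.

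Myeloid transcription factors other than PU.1 and MAF had a negative ratio in 7 of 8 measured genes (87.5%, against 53% of all measured genes). Their median was -0.14, and -0.08 over all probe sets. The brightest, Cebpb and Id3, read 1045.2 and 1107.6, and 946.2 and 827.1, and both are made by many lung cells besides leukocytes. Among the factors known mainly from blood cells, Irf8 read 54.7 and 47.7, Ikzf1 40.0 and 34.9, and Irf5 21.9 and 15.3. Runx1 (43.2 and 41.6) and Batf3 (44.6 and 43.2) were closer to wild type, 1.04-fold and 1.03-fold lower. All of these blood cell factors were named after their values were seen. Irf5 was the only one of the 8 measured factors at least 1.2-fold lower (1.43-fold), which is 12.5%, against 10.6% of all measured genes.

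Further leukocyte signalling genes differed in both directions. Of 15 measured, 10 had a negative ratio (66.7%, against 53% of all measured genes) and the median was -0.11. By 1.2-fold or more 4 were lower (26.7%, against 10.6%) and 3 higher (20%, against 8.02%). Itgal, the alpha L integrin chain that pairs with Itgb2, was at least 1.54-fold lower (23.4 and 15.1). The oxidase subunits Ncf1 and Ncf4 read 57.7 and 43.4, and 51.7 and 41.4. Other subunits of the oxidase were closer to wild type, Cybb reading 43.3 and 40.0 and Cyba 623.8 and 626.1. Plek, the remaining gene at least 1.2-fold lower, read 57.0 and 45.5. Syk, the kinase downstream of TYROBP, read 58.2 and 48.7, short of 1.2-fold. The 3 higher genes were Vav1 (14.3 and 21.0), Lcp2 (18.2 and 24.7) and Cd48 (18.4 and 23.7). Apart from Itgal, these genes were named after their values were seen. The median was -0.02 when it was taken over all probe sets of a gene, and above 0 on the genes that pass a floor of 106.3.

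Complement outside C1q, further macrophage genes and lysosomal genes had medians smaller in size than that of the C1q group. The complement component C2 was at least 1.86-fold lower (28.3 and 4.9). Only this 1 of its 3 probe sets, of the suffix _x_at, was above the floor. It is dim, and 4.91% of genes between 15.2 and 50 units were at least 1.5-fold lower. C3ar1, named after its values were seen, was 1.28-fold higher (32.3 and 41.3). The median of the 4 measured complement genes was -0.05. Of 9 further macrophage genes none was 1.2-fold lower (against 10.6% of all measured genes) and 3 were higher (33.3%, against 8.02%). The 3 higher genes lay below 50 units, where 18.2% of genes were that much higher. Among them was Cd84, a leukocyte adhesion receptor, by at least 1.59-fold (13.4 and 24.2). The list's median was -0.07, and 0.13 over all probe sets. Of 9 lysosomal genes shared with other cells none reached 1.2-fold (Npc2 2675.9 and 2748.2, Ctsb 1328.9 and 1310.5, Npc2 turning below 0 under quantile normalization and loess), with a median of 0.04. All 9 lay above 200 units, where only 2.75% of genes were that much lower and 2.82% higher. Further MHC class II genes had a median of 0.06 on 3 genes (H2-Ab1 27.3 and 37.2, H2-DMa 35.3 and 36.9).

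**Figure D4:**
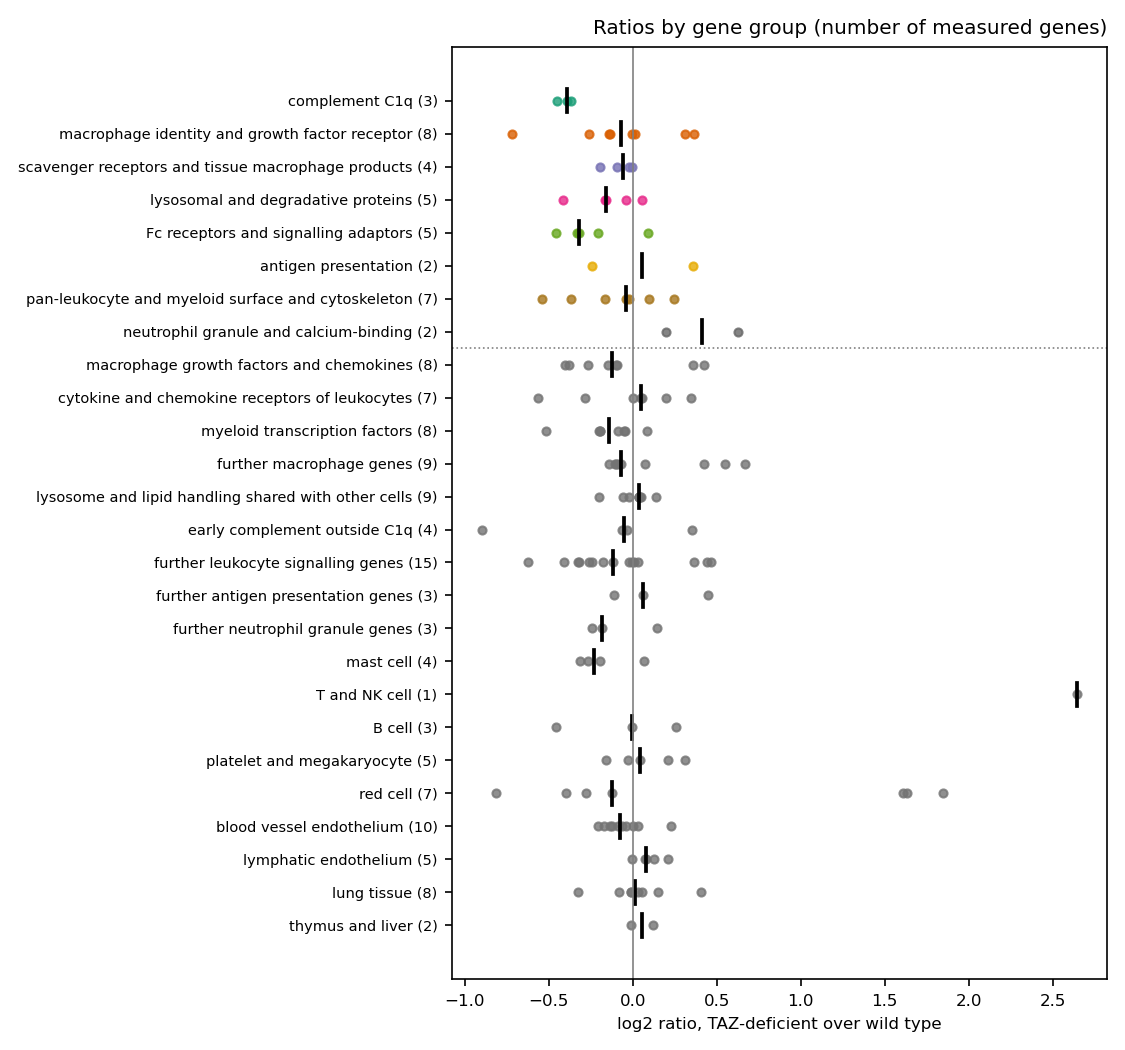
Log2 of TAZ-deficient over wild type signal (horizontal axis) for each measured gene of the 8 member groups (coloured) and the 18 other lists (grey), with the median of each as a black bar and the number of measured genes in brackets. The C1q group lies wholly below 0, the measured neutrophil members lie above 0, and the red cell list holds the embryonic globins at the right.

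Endothelial genes overlap with leukocyte genes such as Stab1 and Fcgr2b in some vessels, and none of those measured reached 1.2-fold. Of 10 blood vessel genes none was 1.2-fold different (Esam 685.9 and 655.4, Emcn 678.8 and 602.3), and the median was -0.08. Over all measured genes 10.6% were that much lower and 8.02% higher. Above 200 units, where the 10 vessel genes lay, these shares were only 2.75% and 2.82%, so a count of none is close to the array. A negative ratio was found in 7 of these 10 (70%), against 53% of all measured genes. That share was close to the 72.2% of the 36 leukocyte genes. Of 5 lymphatic genes none was 1.2-fold different either (Lyve1, which some macrophages share, 446.3 and 469.8, Pdpn 383.3 and 381.6), and their median was 0.08. Thymus and liver genes were dim, Cd8a reading 19.6 and 21.3 and albumin (Alb) 15.3 and 10.7, and the other 6 of 8 were not measured.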

How the data were processed

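The authors deposited linear intensity values, 1 signal for each probe set on each array. GCOS and MAS5 stand in the submitters' processing notes without a version. Each array's mean, trimmed of 2% at either end, was 100.001, so the arrays had been scaled as a whole. No detection call or genome build was used. Of 45101 probe sets, 64 were controls. The platform annotation named 1 gene for 34945 and several for 932, and did not list 9160. For 34741, Entrez identifiers led to current RefSeq symbols (GRCm38.p6).

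Values below 15.2 were set to 15.2, log2 ratios were taken, and a gene was read at its probe set with the highest mean log2 signal after this step. A fold with 1 signal at the floor is a lower bound ("at least"). With 1 array per group no test was run. Folds of 1.2, 1.5 and 2 were counted beside the share of all 12040 measured genes. Every member is named. Of 18 other lists (185 genes, 165 matched, 110 measured), up to 4 genes at least 1.5-fold different or else the 2 brightest are named, with exceptions stated. The members and lists were chosen with earlier results of these data known, and the motifs after these values were seen. The counting was tested on simulated data. Python 3.11.15, pandas 2.3.3 and statsmodels 0.14.6 were used, and 8 alternatives were tried.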

Additional observations from a re-analysis of the deposited data

How the results depend on the processing

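The members' median log2 ratio was negative under all 8 alternatives. A floor at the 25th percentile (4.3 units, 39 genes) gave -0.10, the 75th (106.3 units, 15 genes) -0.041, 16 added in place of a floor -0.10 and loess -0.10, where the medians of all measured genes were -0.02, -0.0041, -0.01 and -0.0015. The count at least 1.5-fold higher was 3 with the lower floor (5.27% of all genes), and 0 with the higher floor (0.198%), with 16 added (0.498%) and without shared probe sets (27 genes, 1.26%). That at least 1.5-fold lower was 0 with the higher floor (0.183%) and with 16 added (0.631%). The count at least 1.2-fold higher was 2 with the higher floor (3.2% of all genes), with 16 added (5.81%), when shared probe sets were left out (8.38%) and when a gene was the median of its probe sets (7.1%). The count 1.2-fold lower was 4 with the higher floor (4.21% of all genes), where 12 of 15 ratios were below 0 (51.1% of all genes). The higher floor leaves fewer genes, and the cause of the other shifts was not tested. Of 258 ratios of single members under the alternatives, 252 moved by less than 0.20 and neither of the genes past 1.5-fold changed sign. The 6 others were those of Spi1 (-0.44) and Itgb2 (-0.33) with 16 added, Maf (0.09), Fcgr2b (-0.06) and H2-Aa (-0.11, which turned its sign) over all probe sets, and S100a8 (0.33) with the higher floor. No paired analysis was possible because each group is 1 pool on 1 array. Signal over background limits the 13 members whose mean signal lies below 50 units. These are Spi1, Cx3cr1, Aif1, Trem2, H2-Aa, Itgb2, S100a9, Cd14, Cd68, Ms4a7, Ptprc, Fcgr1 and Fcgr2b.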

Other observations

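Other blood lineages were measured by few genes. Of 8 mast cell genes 4 were measured (Kit 213.0 and 223.6, Gata2 64.5 and 53.7 in wild type and TAZ-deficient lung), with a median log2 ratio of -0.23, though Kit and Gata2 are expressed outside mast cells too. Of 6 matched B cell genes 3 were measured (Ebf1 41.5 and 30.3, Cd79b 22.9 and 22.8), and the median was -0.01, above 0 under median centring, quantile normalization and loess. Of 6 matched platelet genes 5 were measured (Ppbp 64.0 and 62.9, Itga2b 61.1 and 75.7), with a median of 0.05. Of 8 matched T and NK cell genes only Zap70 was measured, by 1 of its 3 probe sets (14.0 and 95.1), the others reading 10.8 and 10.5, and 9.0 and 8.1, below the floor.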
